A study of Mus musculus with 6 samples.

Results

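The HOX genes of mouse were followed in induced brown adipocytes of U-IRX3ov and control mice. Members were the rows of the count table whose symbol is Hox, a cluster letter from a to d, and a number. The rule found 39 genes among 46095 rows, 11 in cluster A, 10 in cluster B, 9 in cluster C and 9 in cluster D. Reads had been counted per gene in 6 libraries, 3 of the control genotype and 3 of the U-IRX3ov genotype, whose titles read KI. All 6 came from C57BL/6 mice aged 5 weeks. Cells of the stromal vascular fraction of brown adipose tissue, the mixture left once mature fat cells are removed, were cultured and then induced to become adipocytes over 8 days. The inducing medium held insulin, dexamethasone, rosiglitazone, T3 and IBMX at first, and insulin, rosiglitazone and T3 later. The name U-IRX3ov gives overexpression of IRX3, a homeobox factor of the Iroquois family. Which construct and promoter the line carries, and in which cells it acts, is not given in the sources used here. It is likewise not stated whether the 3 libraries of each genotype are separate animals or cultures. Every p-value therefore measures the spread between these 6 libraries, which may be technical.

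HOX genes encode transcription factors with a homeodomain, which bind DNA together with cofactors of the PBX, MEIS and PKNOX families. They lie in 4 clusters in which the order of the genes follows the head-to-tail order of the body regions where they are switched on in the embryo. Members with the same number in different clusters are paralogs, descended from 1 ancestral gene. Adult fibroblasts and fat progenitors are known to keep a HOX profile that reflects the body region they come from, and fat depots differ in it. Groups 1 to 3 are called anterior here, 4 to 8 central and 9 to 13 posterior.

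Library totals ran from 20094799 to 26755870 counts. A count of 1 was worth 0.0365 to 0.0517 CPM, the unit of counts scaled to a common library size (TMM). Irx3 itself had 131, 142 and 138 counts in control and 163, 123 and 114 in U-IRX3ov libraries, or 5.11 ± 0.321 and 6.16 ± 0.233 CPM (SD, n = 3). That difference did not pass the test (edgeR quasi-likelihood, adjusted p = 0.112), and it is not known if construct reads fall in this row. All 10 brown adipocyte markers had counts and rose, Ucp1 from 19.7 ± 1.19 to 240 ± 24.1 CPM. Markers of other cells moved in the same libraries. For comparison, 20.2% of all 14757 genes tested were called higher and 21.1% lower (edgeR adjusted p under 0.05). The summed level of 12 preadipocyte and fibroblast markers was 3481 to 3608 CPM in control and 1964 to 2083 in U-IRX3ov libraries, with 11 of 12 lower. Of 10 macrophage and leukocyte markers all were lower, with sums of 450 to 554 and 146 to 219 CPM. Of 8 tested pericyte and smooth muscle markers 5 were lower and 2 higher, with sums of 3278 to 3396 and 2026 to 2249 CPM. Of 8 endothelial markers 4 were higher and none lower, with sums of 39.5 to 43.3 and 60.4 to 63.9 CPM. Of 10 general adipocyte markers 9 were higher. Of 8 myogenic markers 3 were tested. Embryonic myosin Myh3 rose 2.79-fold, from 0.827 ± 0.358 to 2.33 ± 0.163 CPM, and Acta1, the skeletal muscle actin, fell 1.36-fold, from 20.1 ± 1.32 to 14.7 ± 1.71 CPM. Myog, not tested, had 0 to 4 counts in control and 7 to 9 in U-IRX3ov libraries. The list summed to 21.2 to 24.4 and 17.1 to 19.7 CPM, most of it Acta1, and Myf5, a defining gene of muscle precursors, was at 0 in every library. No other defining marker of these lists was at 0 in all 6. Of 6 tested genes of RNA and culture quality, Neat1, a nuclear RNA, rose 1.55-fold and the early response gene Jun 1.15-fold, while Fos fell 1.31-fold and Malat1, Atf3 and Ddit3 did not pass. The part of these genes in the HOX results was not tested. In bulk RNA, fewer cells of a type and less RNA per cell cannot be told apart.

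The 4 clusters lie on different chromosomes of mm10. Cluster A spans 105.3 kb of chromosome 6 (52155590 to 52260880, genes on the minus strand) and cluster B 173.9 kb of chromosome 11 (96194316 to 96368256, plus strand). Cluster C spans 115.8 kb of chromosome 15 (102921103 to 103036852, plus strand) and cluster D 96.8 kb of chromosome 2 (74668310 to 74765142, plus strand). Promoter sequence from RefSeq (GRCm38.p6, the assembly of mm10) was at hand for 22 of the 39 members. Entries were missing for Hoxa4, Hoxb2, Hoxb3, Hoxb5, Hoxb6, Hoxb7, Hoxb9, Hoxb13, Hoxc5, Hoxc6, Hoxc8, Hoxc9, Hoxc10, Hoxc11, Hoxc12 and Hoxc13. Below are the 250 bases before the start site of Hoxa5, Hoxb4 and Hoxb8, which were higher in U-IRX3ov cells, and of Hoxc4, the one active gene of the cluster with a lower sum in those cells for which an entry exists. Capitals mark a match, on either strand, to 1 of 4 motifs: TGATNNAT (bound by HOX with PBX), ACANNTGT (bound by Iroquois factors), AGGTCA (the half-site of nuclear receptors such as the retinoic acid receptors) and CCAAT. The sequences run 5′ to 3′ on the strand of the gene, and no 2 different motifs overlapped in them.
Hoxa5, chr6:52204588-52204837, minus strand: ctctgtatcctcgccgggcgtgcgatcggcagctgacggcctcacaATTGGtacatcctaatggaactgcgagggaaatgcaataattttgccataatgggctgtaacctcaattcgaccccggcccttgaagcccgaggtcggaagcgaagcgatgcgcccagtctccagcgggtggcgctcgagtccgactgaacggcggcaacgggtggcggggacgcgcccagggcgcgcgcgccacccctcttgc
Hoxb4, chr11:96318017-96318266, plus strand: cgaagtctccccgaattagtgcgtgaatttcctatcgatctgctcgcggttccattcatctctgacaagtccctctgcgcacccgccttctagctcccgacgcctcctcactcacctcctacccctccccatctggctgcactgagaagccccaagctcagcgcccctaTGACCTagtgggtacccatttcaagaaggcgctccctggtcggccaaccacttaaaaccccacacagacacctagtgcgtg
Hoxb8, chr11:96281655-96281904, plus strand: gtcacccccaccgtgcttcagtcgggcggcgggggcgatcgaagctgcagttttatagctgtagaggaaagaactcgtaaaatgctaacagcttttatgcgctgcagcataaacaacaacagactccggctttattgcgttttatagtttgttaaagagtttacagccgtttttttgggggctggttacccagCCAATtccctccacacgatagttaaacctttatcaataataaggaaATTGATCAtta
Hoxc4, chr15:103034145-103034394, plus strand: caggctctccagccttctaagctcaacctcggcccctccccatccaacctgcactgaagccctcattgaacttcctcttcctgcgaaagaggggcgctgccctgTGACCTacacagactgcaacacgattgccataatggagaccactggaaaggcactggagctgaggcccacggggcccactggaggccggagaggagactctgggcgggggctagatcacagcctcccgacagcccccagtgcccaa
The Hoxa5 window held 28 CpG dinucleotides and 1 CCAAT match. The Hoxb4 window held 1 half-site, 81 bases before the start, and the Hoxb8 window 1 HOX-PBX match and 1 CCAAT match. The Hoxc4 window held 1 half-site, 146 bases before the start. It begins at 103034145, inside the annotated span of Hoxc4 (103018934 to 103036852). Over the 24 HOX windows the median was 12.5 CpG, against 6 over all 32851 windows of the table, and the median GC content was 58.6% against 52.4%. The HOX-PBX motif was present in 4 of 24 HOX windows (16.7%) and in 7.68% of all windows, and the Iroquois motif in 1 of 24 (4.17%, Hoxa3) and 6.31%. Half-sites stood in 6 of 24 (25.0%) and 14.02%, and CCAAT in 14 of 24 (58.3%) and 33.8%. A match is a run of letters and not a measured binding site.

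The HOX profile of the cells ended at group 9. In groups 1 to 9, 25 of 27 members had enough counts to be tested, and in groups 10 to 13 only Hoxc13 of 12 did. Members of group 9 had 326 to 1657 counts over the 6 libraries, while the 11 members of groups 10 to 13 other than Hoxc13 had 0 to 33. Those 11 genes together had 9 to 20 counts in a library. Hoxc11 and Hoxd12 had no count at all, which allows up to 3 counts or 0.110 to 0.155 CPM in a library, counting error only. Hoxa10, the next gene after Hoxa9 in its cluster, had 2, 5 and 9 counts in control and 5, 8 and 4 in U-IRX3ov libraries. The drop between groups 9 and 10 was seen in both genotypes. Hoxc13, which is known for its role in hair and nails, stood apart from its silent neighbours with 37, 25 and 33 counts in control and 25, 15 and 17 in U-IRX3ov libraries. At the other end, Hoxb1 had 1 count in all, and Hoxd1 had 6 to 14 per library and stayed just under the filter on low counts. The tested member with the fewest counts was Hoxa6 with 71 over the 6 libraries, against 51 for Hoxd1.

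**Figure D1:**
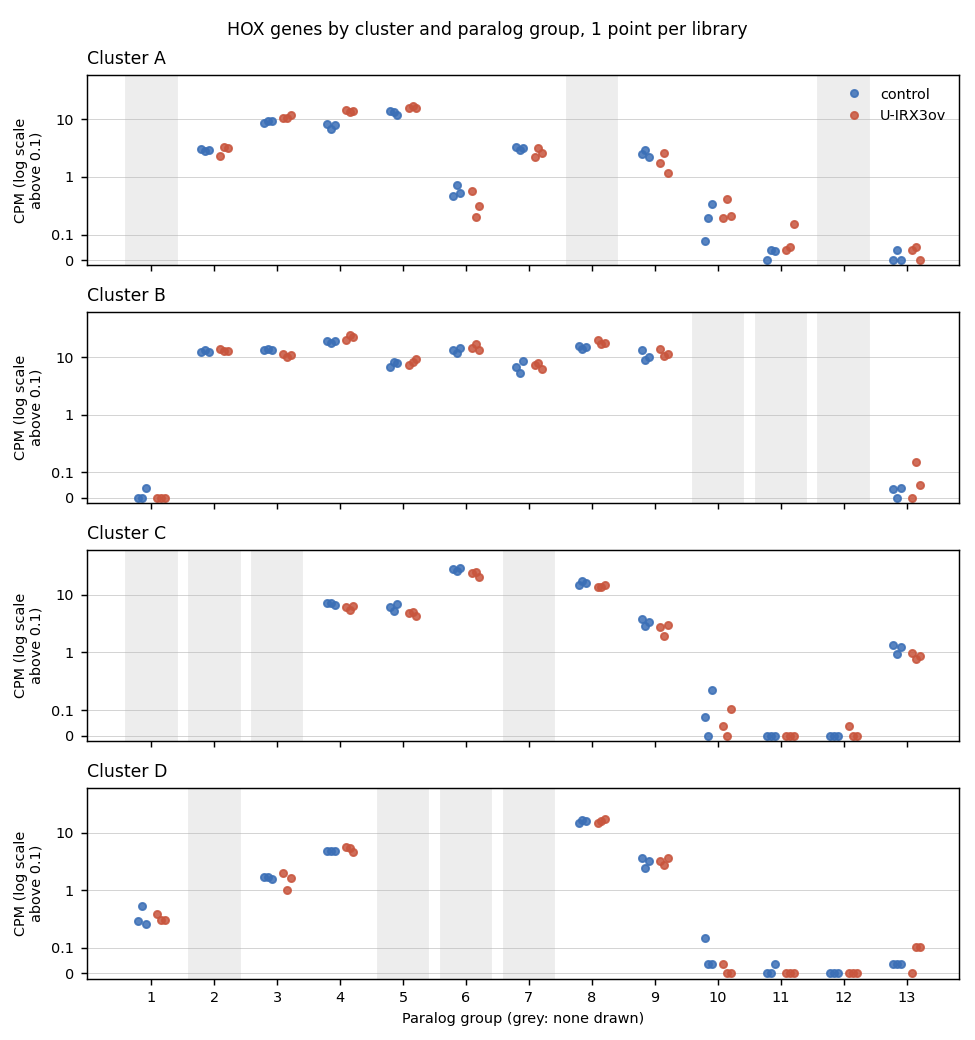
Level of 38 HOX genes in CPM (log scale above 0.1, linear below), by paralog group along the horizontal axis and by cluster in 4 panels, with 1 point per library, control in blue and U-IRX3ov in red. Members of groups 10 to 13 lie near 0 in every cluster except Hoxc13, at 0.770 to 1.35 CPM.

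Per kilobase of annotated exon, a scale on which genes can be compared, Hoxc6 had the highest level in both groups. It stood at 11.6 ± 0.616 CPM per kb in control and 9.68 ± 0.976 in U-IRX3ov cells (SD, n = 3). In control, Hoxb4 (7.30 ± 0.467), Hoxa5 (6.86 ± 0.570) and Hoxb6 (6.71 ± 0.561) followed within each other's spread. Hoxc8 (5.73 ± 0.471), Hoxd8 (5.66 ± 0.387) and Hoxb8 (5.65 ± 0.264) formed the next set, and were likewise not separated by their SD. Hoxa4 was the eighth in control at 4.79 ± 0.518 CPM per kb and the second in U-IRX3ov cells at 8.86 ± 0.398. There it lay within the spread of Hoxb4 (8.61 ± 0.869) and Hoxa5 (8.59 ± 0.379). The annotation the authors counted on is not given in the sources used here, so the lengths, from GENCODE, may differ from theirs. Of the 26 tested members 12 share exon sequence with another annotated gene, 6 on the same strand and 9 on the opposite strand. Whether the counting used strand is also unknown here, so those genes are uncertain.

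Between the genotypes, edgeR called 7 of the 26 tested members, 4 higher and 3 lower, at an adjusted p under 0.05. That is 26.9% of them, where 41.3% of all 14757 genes tested were called (percent called, either direction). In the higher direction it was 15.4% of HOX genes against 20.2% of all genes, and in the lower direction 11.5% against 21.1%. The called members were Hoxa4, Hoxa5, Hoxb4 and Hoxb8 (higher) and Hoxb3, Hoxc5 and Hoxc6 (lower). Without U-IRX3ov library 3 the lower calls came to 1, that of Hoxb3. The median log2 fold change was 0.01 over the HOX genes and 0.00 over all genes tested, with 13 members above 0 and 13 below. Libraries of the groups did not overlap for 6 members lower in U-IRX3ov (23.1%, against 25.9% of all genes) and 5 higher (19.2% against 24.9%). The share of HOX genes called was thus below the share over all genes. Tested members had 71 to 3760 counts over the 6 libraries, and the part of count level in this share was not tested. All calls but that of Hoxb3 were in the central class, with 4 of 15 higher and 2 lower. The anterior class had 1 of 6 tested members lower, and the posterior class had none of 5 past the threshold.

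**Figure D2:**
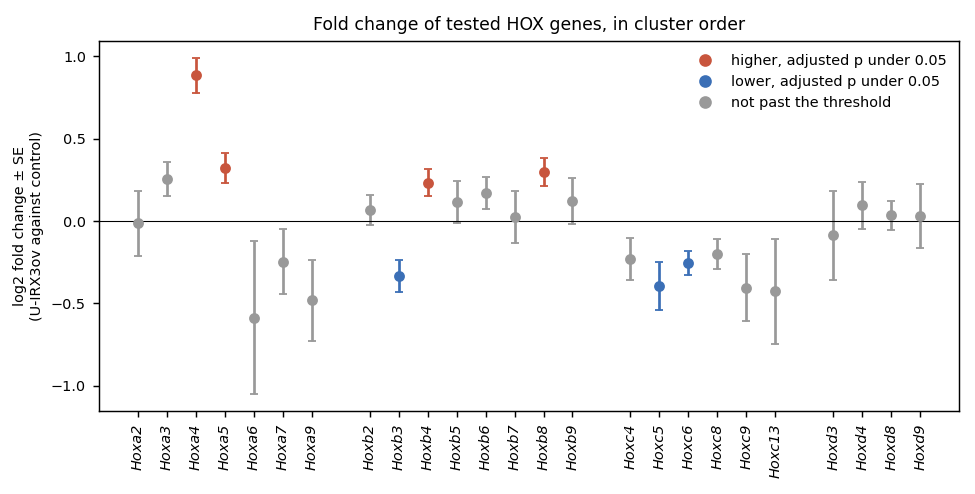
Log2 fold change of U-IRX3ov against control (vertical axis, error bars SE from edgeR) for 25 of the tested HOX genes in cluster order, coloured by whether the adjusted p was under 0.05. Hoxa4 stands alone at 0.89, and all 6 tested genes of cluster C lie below 0.

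In cluster A, 2 of 8 tested members rose (25.0%) and none fell, where 20.2% of all genes tested were called higher and 21.1% lower. Hoxa4 (chromosome 6, 52189671 to 52191753) had the largest difference of the family. It had 228, 176 and 212 counts in control libraries 1, 2 and 3 and 384, 263 and 273 in U-IRX3ov libraries 1, 2 and 3. Its levels were 8.33, 6.72 and 7.87 CPM in control and 14.8, 13.5 and 14.1 CPM in U-IRX3ov libraries, in the same order throughout. Every U-IRX3ov library was far above every control library, a 1.85-fold rise by edgeR (0.89 ± 0.11 as log2 with its SE, adjusted p = 9.39e-08). Hoxa5 (52201754 to 52204587), which acts in lung and skeletal patterning, had 13.8, 13.2 and 11.7 CPM in control and 15.8, 16.9 and 15.6 CPM in U-IRX3ov libraries. The counts behind them were 377, 345 and 315 against 412, 330 and 302. It rose 1.25-fold (log2 0.32 ± 0.09, edgeR adjusted p = 0.00512), again without overlap. Hoxa3, which patterns the thymus and parathyroid, had 8.69, 9.55 and 9.24 CPM in control and 10.7, 10.5 and 11.7 CPM in U-IRX3ov libraries. The libraries did not overlap, but the difference missed the threshold (log2 0.26 ± 0.10, edgeR adjusted p = 0.0515). It passed with DESeq2 size factors (0.0475) and with a filter of 1 CPM in 3 libraries (0.0482).

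The other members of cluster A described here had negative fold changes that did not pass. Hoxa2, a hindbrain gene, was at 2.93 ± 0.139 CPM in control and 2.93 ± 0.508 in U-IRX3ov cells (log2 -0.01 ± 0.20). Hoxa6 was at 0.573 ± 0.134 and 0.364 ± 0.192 CPM (-0.59 ± 0.47) and Hoxa7 at 3.14 ± 0.142 and 2.66 ± 0.481 (-0.25 ± 0.20). Hoxa9 was at 2.58 ± 0.380 and 1.85 ± 0.722 CPM (-0.48 ± 0.25), with an adjusted p of 0.124 that became 0.0233 without U-IRX3ov library 2. Ratios of neighbouring tested genes were compared in each library, for 22 neighbour pairs in the 4 clusters, of which 4 did not overlap between groups. Single genes did not overlap for 25.9% (lower) and 24.9% (higher) of all genes tested. The 4 of 22 pairs count either direction, and their share was below both of these shares added. Each of the 4 pairs holds Hoxa4 or Hoxb3, which were called as single genes. The ratio of Hoxa4 to Hoxa5 was 0.510 to 0.673 in control and 0.797 to 0.932 in U-IRX3ov libraries. The ratio of Hoxa3 to Hoxa4 was 1.04 to 1.42 and 0.721 to 0.828. Each had an exact permutation p of 0.1 (two-sided, adjusted 0.550 over the 22 pairs), the smallest that 3 against 3 libraries can give. Exons of Hoxa4 overlap the antisense gene Gm29430, and those of Hoxa3 several genes, so reads may be shared with them. Hoxa5 has no such overlap.

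Cluster B held both directions side by side. Of its 8 tested members 2 were called higher (25.0%) and 1 lower (12.5%), beside 20.2% and 21.1% of all genes tested. Hoxb4 (chromosome 11, 96318267 to 96321638), known for expanding blood stem cells when overexpressed, had 19.4, 17.3 and 19.4 CPM in control and 19.6, 24.0 and 22.6 CPM in U-IRX3ov libraries. The counts were 532, 454 and 523 against 511, 468 and 438. U-IRX3ov library 1 lay just above the highest control library. The 1.17-fold rise (log2 0.23 ± 0.08, edgeR adjusted p = 0.0242) was lost without control library 2 (0.123), U-IRX3ov library 2 (0.155) or U-IRX3ov library 3 (0.0858). Hoxb8 (96281905 to 96285315), a gene of thoracic and myeloid progenitors, had 15.4, 14.1 and 15.2 CPM in control and 19.9, 17.0 and 17.9 CPM in U-IRX3ov libraries. The counts were 421, 369 and 410 against 517, 332 and 346. All 3 U-IRX3ov libraries were above all control libraries, a 1.23-fold rise (log2 0.30 ± 0.09, edgeR adjusted p = 0.00589). The call was lost without U-IRX3ov library 1 (adjusted p = 0.0645).

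Hoxb3 (96323326 to 96347930), the neighbour of Hoxb4 and a gene of the hindbrain and thyroid, went the other way. It had 13.1, 14.1 and 13.2 CPM in control and 11.3, 9.96 and 10.7 CPM in U-IRX3ov libraries. Its counts were 360, 368 and 355 against 295, 194 and 207. Every U-IRX3ov library was below every control library, 1.26-fold lower (log2 -0.33 ± 0.10, edgeR adjusted p = 0.00686). The ratio of Hoxb3 to Hoxb4 was 0.677 to 0.811 in control and 0.415 to 0.577 in U-IRX3ov libraries, and that of Hoxb2 to Hoxb3 was 0.929 to 0.932 and 1.20 to 1.29 (exact permutation p = 0.1 and adjusted 0.550 for each). Hoxb3 and Hoxb2 share exon sequence with the antisense gene Hoxb3os. The remaining members stayed within overlapping ranges. Hoxb2 was at 12.5 ± 0.466 CPM in control and 13.1 ± 0.421 in U-IRX3ov cells (log2 0.07 ± 0.09), and Hoxb5 at 7.66 ± 0.850 and 8.34 ± 1.07 (0.12 ± 0.13). Hoxb6 was at 13.2 ± 1.10 and 14.9 ± 1.61 CPM (0.17 ± 0.10), Hoxb7 at 6.89 ± 1.77 and 7.02 ± 0.861 (0.03 ± 0.16) and Hoxb9 at 10.9 ± 2.31 and 11.8 ± 1.71 (0.12 ± 0.14). Hoxb7 and Hoxb9 varied most between control libraries, from 5.20 to 8.72 CPM and from 9.02 to 13.5 CPM.

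All 6 tested members of cluster C had negative fold changes, from -0.43 to -0.20 on the log2 scale with a median of -0.32. Of the 6, 2 passed the test (33.3%), where 21.1% of all genes tested were called lower and 41.3% in either direction. Hoxc6 (chromosome 15, 102998257 to 103011881), a thoracic gene, had 28.6, 26.1 and 28.8 CPM in control and 24.1, 25.1 and 20.7 CPM in U-IRX3ov libraries. Its counts were 784, 684 and 775 against 627, 490 and 400. The groups did not overlap and it fell 1.19-fold (log2 -0.25 ± 0.07, edgeR adjusted p = 0.00645), a call lost without U-IRX3ov library 3 (0.0859). Hoxc5 (102967443 to 103017429) had 6.21, 5.23 and 7.01 CPM in control and 4.77, 4.98 and 4.29 CPM in U-IRX3ov libraries. Its counts were 170, 137 and 189 against 124, 97 and 83. It fell 1.31-fold (log2 -0.39 ± 0.15, edgeR adjusted p = 0.0311) without overlap. The Hoxc5 call was lost with DESeq2 (0.0764) and in 4 of the 6 fits without 1 library, those without control library 1 or 3 or U-IRX3ov library 1 or 3 (adjusted p 0.0737, 0.162, 0.0656 and 0.112). Hoxc5 shares exon sequence with Hoxc10 on the same strand.

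Hoxc8 had 15.1, 17.7 and 15.9 CPM in control and 13.9, 13.8 and 14.6 CPM in U-IRX3ov libraries, and did not pass (log2 -0.20 ± 0.09, edgeR adjusted p = 0.0722). Without control library 1 its adjusted p was 0.0481. Hoxc4 had 7.27, 7.26 and 6.57 CPM in control and 6.15, 5.39 and 6.40 CPM in U-IRX3ov libraries (log2 -0.23 ± 0.13, edgeR adjusted p = 0.157). Neither gene overlapped between groups. Hoxc9 was at 3.37 ± 0.523 and 2.54 ± 0.560 CPM (-0.40 ± 0.20) and Hoxc13 at 1.18 ± 0.202 and 0.870 ± 0.0960 (-0.43 ± 0.32), both with overlapping libraries. Fibroblast markers had a median log2 fold change of -0.72 and leukocyte markers one of -1.32 in the same libraries, and the part of these cells in the lower cluster C levels was not tested.

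None of the 4 tested members of cluster D passed, where 41.3% of all genes tested did. Hoxd8 had 14.4, 16.5 and 15.6 CPM in control and 14.8, 16.0 and 17.1 CPM in U-IRX3ov libraries (log2 0.04 ± 0.09, edgeR adjusted p = 0.777). Hoxd4 was at 4.86 ± 0.0326 and 5.17 ± 0.549 CPM (0.10 ± 0.14), and Hoxd9 at 3.11 ± 0.626 and 3.18 ± 0.448 (0.03 ± 0.20). Hoxd3 was at 1.66 ± 0.0918 and 1.55 ± 0.476 CPM (-0.09 ± 0.27). The libraries overlapped for all 4. Hoxd3 and Hoxd4 share exon sequence with each other.

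Summed over its members, each cluster gave 1 value per library. Cluster A summed to 43.8, 43.2 and 42.5 CPM in control and 52.0, 54.1 and 52.2 CPM in U-IRX3ov libraries, 1.22-fold higher with no overlap. The rise was not general to the cluster. Of its 8 tested members 5 had negative fold changes (median log2 -0.13), and only Hoxa4 and Hoxa5 were called. Cluster C summed to 62.5, 60.1 and 63.1 CPM in control and 52.8, 52.0 and 49.9 CPM in U-IRX3ov libraries, 1.20-fold lower with no overlap. Cluster B, the largest, summed to 98.3 ± 4.47 and 106 ± 1.61 CPM, also without overlap, and cluster D to 25.6 ± 0.527 and 26.3 ± 0.933 CPM, with overlap. The whole family summed to 229 ± 5.50 CPM in control and 237 ± 2.66 in U-IRX3ov cells. That family sum differed by 0.05 on the log2 scale and by -0.048 when libraries were scaled by their total counts, so its direction depends on the scaling. The same held for cluster D (0.03 and -0.062) and the central class (0.08 and -0.012). Clusters A, B and C kept their direction under that scaling, but cluster B came to only 0.016 and its libraries then overlapped. With TMM scaling the exact permutation p was 0.1, the smallest possible, for the sums of clusters A, B and C, and 0.5 for cluster D.

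**Figure D3:**
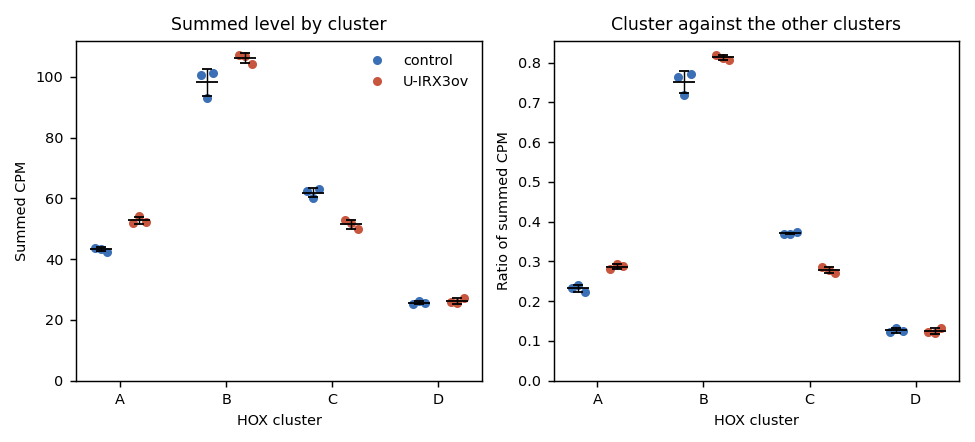
Summed CPM of each HOX cluster (left) and the ratio of each cluster's sum to that of the other clusters (right), with 1 point per library, and the mean and SD as black bars (n = 3). Cluster A lies higher and cluster C lower in all 3 U-IRX3ov libraries, also with total-count scaling, and the cluster C ratio is 0.369 to 0.373 in control and 0.271 to 0.285 in U-IRX3ov libraries.

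Ratios within a library do not depend on the scaling. The sum of cluster C relative to the other clusters was 0.370 ± 0.00219 in control and 0.278 ± 0.00676 in U-IRX3ov libraries, and that of cluster A was 0.233 ± 0.00848 and 0.287 ± 0.00662 (SD, n = 3). Neither ratio overlapped between groups (exact permutation p = 0.1 each). The cluster B ratio, at 0.752 ± 0.0284 and 0.813 ± 0.00693, did not overlap either (exact permutation p = 0.1). The cluster D ratio overlapped (exact permutation p = 0.6). These ratios are built from the same total, so they are not separate results. Cluster C thus took 26.9% to 27.2% of the HOX signal in control libraries and 21.3% to 22.2% in U-IRX3ov libraries. By position, the anterior class summed to 44.2 ± 1.48 and 42.9 ± 1.42 CPM (exact permutation p = 0.4) and the posterior class to 21.6 ± 3.39 and 20.8 ± 1.80 CPM (p = 0.8). The central class summed to 163 ± 4.56 and 173 ± 4.57 CPM (exact permutation p = 0.1).

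Paralogs, whose homeodomains are closely related, were compared as ratios in each library over 22 pairs of groups 4 to 9. Of these, 10 did not overlap between genotypes, and each of those had an exact permutation p of 0.1 (adjusted 0.220). Single genes did not overlap for 25.9% (lower) and 24.9% (higher) of all genes tested. The 10 of 22 pairs count either direction, and their share was not above both of these shares added. Pairs share members, Hoxa4 among them, so the 10 are not separate results. The ratio of Hoxa4 to Hoxc4 was 1.09 ± 0.144 in control and 2.37 ± 0.154 in U-IRX3ov cells, and that of Hoxa4 to Hoxd4 1.57 ± 0.177 and 2.75 ± 0.312. In group 5 the ratio of Hoxa5 to Hoxc5 was 2.13 ± 0.432 and 3.45 ± 0.164. In group 6 the ratio of Hoxb6 to Hoxc6 was 0.473 ± 0.0177 and 0.638 ± 0.0279, and in group 8 that of Hoxb8 to Hoxc8 was 0.925 ± 0.115 and 1.29 ± 0.115. In these 4 pairs with a cluster C gene, that gene was lower relative to the named paralog in U-IRX3ov cells. Hoxa6 to Hoxc6, with few Hoxa6 counts, had the opposite sign (0.0208 ± 0.00608 and 0.0157 ± 0.00790) and overlapped. Hoxa9 to Hoxc9 also had the opposite sign on the log2 scale (-0.12, exact permutation p = 0.8) and overlapped. Its plain means were 0.786 ± 0.232 in control and 0.802 ± 0.511 in U-IRX3ov cells. Hoxb4 to Hoxd4 (3.86 ± 0.269 and 4.32 ± 0.736) and Hoxb9 to Hoxd9 (3.51 ± 0.274 and 3.74 ± 0.583) overlapped.

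Noncoding genes within the clusters were few and low. Of 18 long noncoding RNAs listed, 11 had a row, 5 were tested and 2 rose, where 20.2% of all genes tested were called higher and 41.3% in either direction. Gm53, which lies between Hoxb13 and Hoxb9 (chromosome 11, 96251105 to 96264868), had 68, 76 and 67 counts in control and 106, 69 and 80 in U-IRX3ov libraries, 2.62 ± 0.242 and 3.92 ± 0.326 CPM. It rose 1.49-fold (log2 0.58 ± 0.18, edgeR adjusted p = 0.0108). Hotairm1, a noncoding RNA of cluster A read from the opposite strand to its HOX genes, was at 4.64 ± 0.328 and 6.10 ± 0.773 CPM (log2 0.39 ± 0.14, edgeR adjusted p = 0.0321). That call was lost with DESeq2 (0.0680) and without control library 1 or 2 or U-IRX3ov library 2 or 3 (0.0713, 0.104, 0.0598 and 0.169). Its exons overlap those of another gene, so its reads are uncertain. Hotair and Hottip, transcribed at the posterior parts of clusters C and A, had no count in any library. The row of Mir196a-1, a microRNA gene beside Gm53, had 12, 16 and 12 counts in control and 23, 4 and 11 in U-IRX3ov libraries. Such rows count reads over the hairpin and not the mature microRNA.

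The list of HOX cofactors and related genes had 3 of 9 tested members lower and none higher. Of all genes tested 21.1% were called lower and 41.3% in either direction. The median log2 fold change was -0.12 beside 0.00 over all genes. Pbxip1, counted with the related genes, binds PBX proteins and is not itself of the PBX, MEIS or PKNOX families. It went from 116 ± 3.38 to 76.5 ± 1.20 CPM (SD, n = 3), a 1.52-fold fall (log2 -0.60 ± 0.04, edgeR adjusted p = 2.47e-12). Pknox2, a TALE homeodomain factor, fell 1.61-fold from 13.6 ± 1.16 to 8.43 ± 0.647 CPM (log2 -0.69 ± 0.11, edgeR adjusted p = 4.86e-06). Meis1 was at 7.17 ± 0.296 and 5.91 ± 0.788 CPM and did not pass (edgeR adjusted p = 0.0858). It passed without U-IRX3ov library 2 (0.0328). Not past the threshold either were Meis2, Meis3, Pbx3, Pbx4 and Pknox1, and Pbx2 was not tested. Fibroblast markers fell in the same libraries (11 of 12), and their part in these values was not tested.

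**Figure D4:**
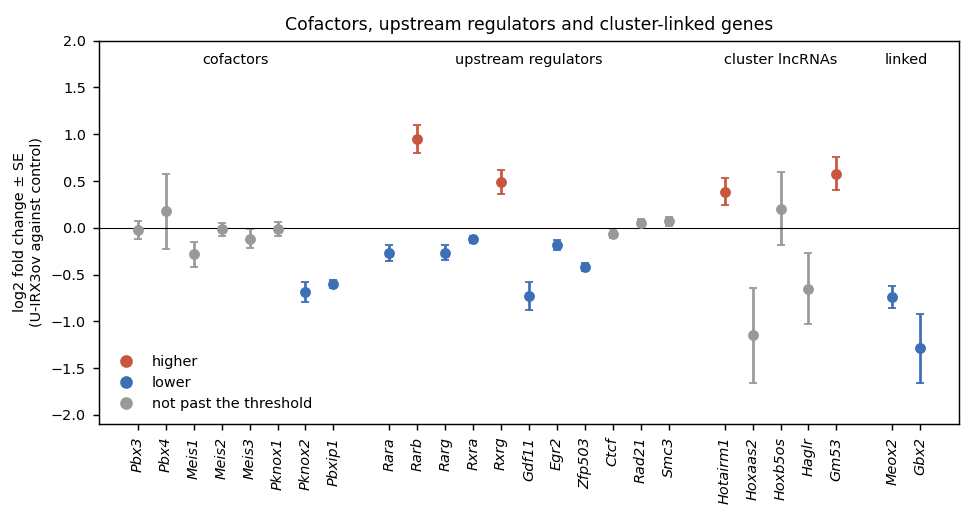
Log2 fold change of U-IRX3ov against control (vertical axis, error bars SE from edgeR), coloured by whether the adjusted p was under 0.05. Drawn are tested HOX cofactors with the related Pbxip1, upstream regulators, cluster noncoding RNAs and linked homeobox genes. Among the genes past the threshold shown, Rarb (0.95) is the highest and Gbx2 (-1.29) the lowest.

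Among regulators known to act on HOX clusters in the embryo, 2 of 12 tested members rose and 7 fell, where 20.2% of all genes tested were called higher and 21.1% lower. The retinoic acid receptor Rarb, itself a target of retinoic acid, rose 1.94-fold from 3.54 ± 0.174 to 6.82 ± 1.14 CPM (log2 0.95 ± 0.15, edgeR adjusted p = 8.93e-06), and the retinoid X receptor Rxrg rose 1.41-fold. Rara fell 1.20-fold, Rarg 1.20-fold and Rxra 1.09-fold. Rxrb, with 20 counts in all, was not tested and had 0.0613 ± 0.0559 CPM in control and 0.218 ± 0.122 in U-IRX3ov cells. Gdf11, a ligand that patterns the trunk-to-tail transition, fell 1.66-fold from 5.47 ± 0.186 to 3.29 ± 0.123 CPM (log2 -0.73 ± 0.15), and Zfp503 fell 1.34-fold (-0.42 ± 0.05). Egr2, which drives HOX genes in the hindbrain, fell 1.14-fold. Ctcf, Rad21 and Smc3, which set chromatin loop borders, did not pass. Cdx2 and Cdx4 had no count, and Cdx1 had 3 in all.

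Polycomb group genes, which keep HOX clusters silent, had 3 of 30 tested members higher and 5 lower, a smaller share called than the 41.3% of all genes, with a median log2 fold change of -0.02. The catalytic subunit Ezh2 was at 21.8 ± 2.21 and 21.8 ± 1.02 CPM and did not pass, nor did Eed. Jarid2, a targeting subunit of the same complex, rose 1.51-fold from 26.4 ± 0.661 to 39.9 ± 4.14 CPM (log2 0.59 ± 0.07, edgeR adjusted p = 7.01e-08). Suz12, a core subunit, rose 1.13-fold (0.17 ± 0.05). Cbx6 fell 1.43-fold (-0.52 ± 0.05) and Aebp2 1.14-fold (-0.19 ± 0.04), and the other falls were those of Scmh1 (-0.28 ± 0.06), Rybp (-0.17 ± 0.07) and Phf19 (-0.65 ± 0.25). The opposing Trithorax genes and H3K27 demethylases had 6 of 15 tested members higher and 1 lower, beside 20.2% and 21.1% of all genes, with a median of 0.08. Among them Kmt2c rose 1.26-fold (0.33 ± 0.05), Setd1a 1.15-fold (0.20 ± 0.04), Kmt2d 1.15-fold (0.20 ± 0.05) and Dpy30 1.29-fold (0.36 ± 0.08), while Kmt2a, the methyltransferase best known for keeping HOX genes active, fell 1.08-fold (-0.11 ± 0.04, edgeR adjusted p = 0.0364). Of 10 homeobox genes linked or related to the HOX clusters 5 had no count in any library, among them Evx1 and Evx2 at the cluster ends. Only 2 of the 10 were tested, and both were called lower, as were 21.1% of all genes tested. Meox2, a factor of muscle and vascular development, fell 1.67-fold from 11.3 ± 1.07 to 6.69 ± 0.800 CPM (log2 -0.74 ± 0.12, edgeR adjusted p = 9.00e-06), and Gbx2 fell from 1.25 ± 0.458 to 0.514 ± 0.0534 CPM. The Gbx2 call was lost without control library 3 (adjusted p = 0.0751).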

How the data were processed

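The deposited table holds raw counts of reads per gene symbol in 6 libraries, made by the authors and not normalized. HISAT2 2.0.4 and mm10 are named in the submitters' processing notes, while counting program and annotation are not given there. Members and gene lists were chosen with earlier results of these data known.

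The edgeR filter filterByExpr kept 14757 of 46095 rows, with at least 99.9% of the counts in every library. After TMM scaling, U-IRX3ov was compared with control by edgeR 4.0.16 (R 4.3.3) through its quasi-likelihood test (robust), with genotype alone in the model. P-values were adjusted by Benjamini-Hochberg across the 14757 genes, and all adjusted p-values of genes come from that model except where another setting is named. The SE equals the log2 fold change over the square root of F. Sums and ratios had two-sided exact permutation tests over libraries. Coordinates and exon lengths are from GENCODE (GRCm38).

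Members that passed the filter are named, as are up to 4 genes of smallest p in each other list. Further genes of those lists were picked with their values known. A few genes that entered the counts, sums and medians are not reported by name here. Chi-square per degree of freedom was 2.92 to 4.91 between replicates and 60.1 to 70.5 between genotypes. The code was tested on simulated data. DESeq2 1.42.0, limma-voom (limma 3.58.1), other scalings and filters, a replicate block and omission of each library were tried as alternatives.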

Additional observations from a re-analysis of the deposited data

How the results depend on the processing

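The 4 higher and 3 lower HOX calls were 4 to 5 and 2 to 3 under the other scalings, filters and tools, and 3 and 2 at an adjusted p of 0.01. Without 1 library they were 3 to 4 higher and 1 to 4 lower, with 1 lower call without U-IRX3ov library 3. Hoxa4, Hoxa5 and Hoxb3 passed in every fit run. With the replicate number as a block, 4 were higher and 3 lower, and no HOX call changed. The cluster RNA Hoxaas2 (edgeR adjusted p = 0.0701) passed with the replicate block (0.0482), with limma-voom (0.0462) and without control library 2 (0.0488) or U-IRX3ov library 1 (0.0193). Same-numbered libraries had correlations of deviations of -0.00117, 0.0948 and 0.0515. Control libraries 2 and 3 correlated best with their own number, and control library 1 did not. With this mixed result the numbers were not taken as pairs.

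Scaled by total counts, the log2 differences of the sums were -0.048 for all members, 0.193, 0.016, -0.360 and -0.062 for clusters A to D, -0.138 for the anterior and -0.012 for the central class. TMM gave 0.05, then 0.29, 0.11, -0.26 and 0.03, then -0.04 and 0.08. Without 1 library, sums ranged from 0.27 to 0.30 for cluster A and from -0.28 to -0.24 for cluster C.

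Uncalled genes whose sign changed without 1 library were Hoxa2 (log2 fold change -0.11 to 0.14), Hoxb7 (-0.14 to 0.23), Hoxb9 (-0.0087 to 0.30), Hoxd3 (-0.31 to 0.13), Hoxd8 (-0.015 to 0.093) and Hoxd9 (-0.12 to 0.17). The cause of these changes was not tested. The SE was 0.47 for Hoxa6 and 0.32 for Hoxc13, both with few counts, and how much of it is counting error was not tested.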
